A study of Mus musculus with 15 samples.

Results

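A set of 35 genes whose names place them among the protein tyrosine phosphatases were followed in dendritic cells (DC) grown from the bone marrow of female NOD mice, which become diabetic through autoimmunity. They were taken from the array annotation as every probe set with a single gene symbol starting with Ptpn and a digit, Ptpr and a letter, or Ptp4a. This gave 51 of the 12422 probe sets tested, and where a gene had several, the one brightest on average over the 15 arrays, as log2(signal + 16), stood for it, leaving 35 of 8251 genes. Of these, 19 carried receptor-type names (Ptpr), 14 cytosolic names (Ptpn) and 2 the Ptp4a name. The name rule also takes in Ptprcap, which encodes a CD45-associated protein and not a phosphatase.

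GM4 DC were grown for 4 days with GM-CSF (1 ng/ml) and IL-4 (1 ng/ml), and GM DC with GM-CSF (1 ng/ml) alone; the donors of both were 6 to 8 weeks old. The cells were purified on metrizamide gradients, of 14.5% for GM4 DC and 16% for GM DC, and then exposed to lipopolysaccharide (LPS, 10 µg/ml) together with IFN-γ (50 ng/ml). RNA was taken at 0, 6 and 20 h from GM4 DC (3, 3 and 2 arrays) and from GM DC (3, 2 and 2 arrays) and hybridised to Affymetrix MG_U74Av2 arrays. The title of the series calls GM4 DC therapeutic and GM DC non-therapeutic. The labels describe biological replicates of which not every RNA was usable, and one GM4 array at 0 h carries no doses or gradient in its label. The gradient differed between the DC types as well as IL-4, and their parts cannot be told apart.

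Protein tyrosine phosphatases remove phosphate from tyrosine residues and so oppose the tyrosine kinases, using a cysteine in the active site. Receptor-type members cross the membrane, whereas the cytosolic members are steered to their substrates by domains such as SH2, FERM or proline-rich tails, and the Ptp4a proteins are small phosphatases anchored by a lipid. In myeloid cells CD45 (Ptprc) sets the activity of Src family kinases, SHP-1 (Ptpn6) is recruited by inhibitory receptors, PTP1B (Ptpn1) and TC-PTP (Ptpn2) act on JAK and STAT proteins downstream of cytokine receptors, and the PEST-type enzyme PEP (Ptpn22) works together with the kinase Csk.

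The phosphatase genes spanned the whole range of the array. Median signals over the 15 arrays exceeded 100 for 13 genes, lay between 40 and 100 for 7 and were under 40 for 15; since probe sets differ in how well they bind, these levels do not rank the genes against each other. Signals stayed above 16 on every array for 19 genes, above 100 on every array for 7, and under 100 on every array for 18. For 10 genes the signal was below 16 on 8 or more arrays, where the offset of 16 compresses any difference. A gene was said to have passed when limma's moderated test, fitted over all 12422 probe sets, gave a Benjamini-Hochberg adjusted p under 0.05. By that rule 14 of the 35 genes passed at least 1 of 7 direct comparisons (GM4 against GM DC at each time, and each later time against 0 h within a DC type), and 11 passed at least 2. The other 21 passed none. Shares of all genes were taken only within single comparisons, given below, so these counts over 7 comparisons have none beside them.

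**Figure D1:**
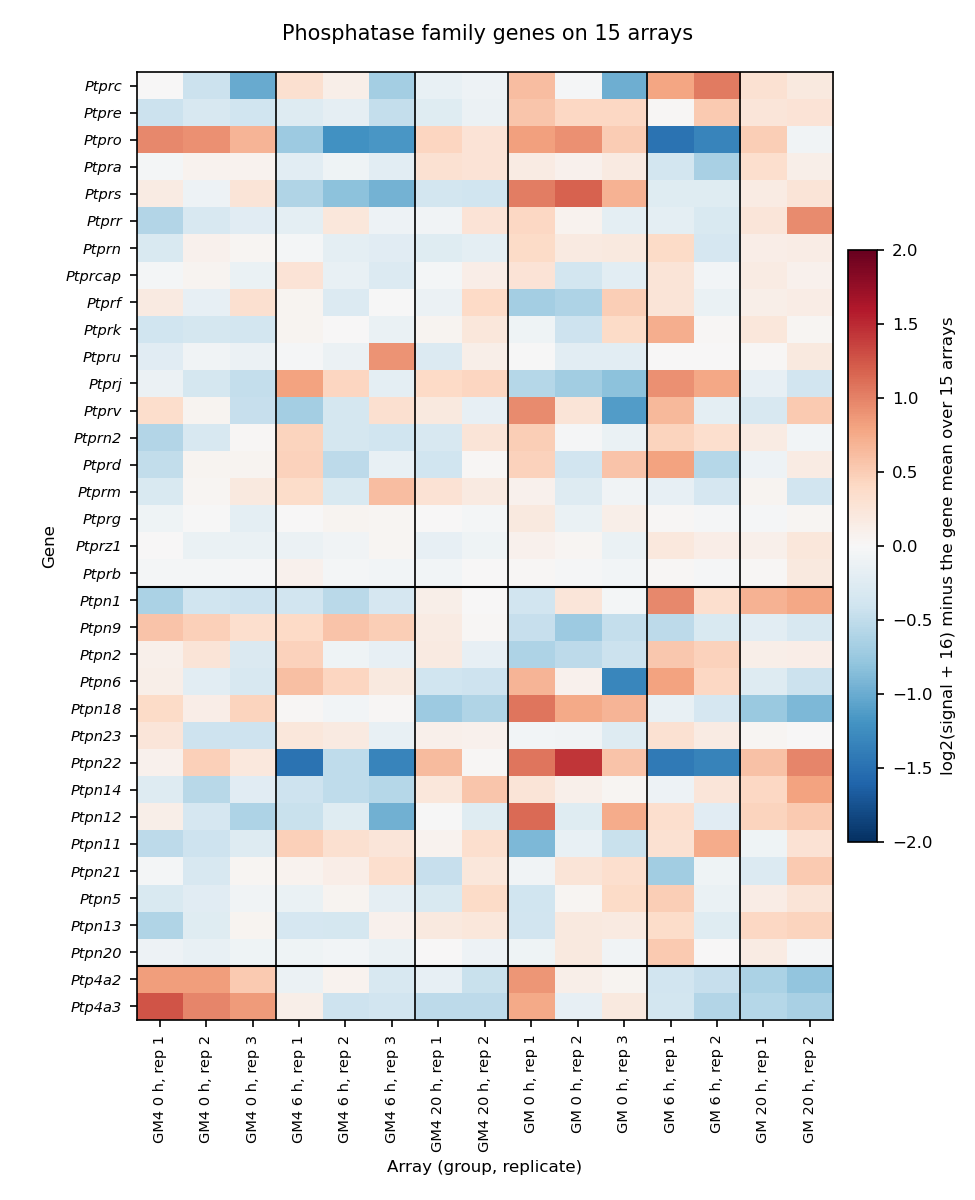
Heat map of the 35 genes (rows, in the order receptor-type, cytosolic and Ptp4a names) on the 15 arrays (columns, GM4 DC left of GM DC); colour is log2(signal + 16) minus the gene's mean over all arrays. Ptpro and Ptpn22 show blue columns at 6 h in both DC types, and Ptpn9 lies above its mean on the 8 GM4 arrays, only just at 20 h, and below it on the 7 GM arrays.

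All arrays were scaled alike, with a median signal between 40.1 and 48.5 per array, and replicates of a group correlated at 0.966 or more. The ratio of 3′ to 5′ Gapdh probe sets, a sign of RNA integrity, ran from 1.03 to 1.48 in GM4 DC and from 1.18 to 2.46 in GM DC. That of beta-actin ran from 1.13 to 1.44 in GM4 DC and from 1.43 to 2.26 in GM DC. Where RNA integrity serves as a covariate below, it is the mean log2 of both ratios. The highest Gapdh ratio belonged to GM DC at 0 h, replicate 3. That array and GM DC at 6 h, replicate 1, had been doubted in earlier work on these data, on grounds that are not given here. Calls that are lost or gained without this pair are given beside the genes concerned. Of 11 measured monocyte and macrophage markers, 8 were lower in GM4 DC than in GM DC at 0 h. At 6 h 9 were lower, and by 20 h 4 were lower and 1 higher. Their summed signal before stimulation was 5024 to 5626 in GM4 DC, against 13864 to 17044 in GM DC. Of 15 neutrophil markers, 9 were lower and 3 higher at 20 h than at 0 h in GM4 DC, and 7 lower and 3 higher in GM DC. Their summed signal at 20 h was 4034 to 4069 in GM4 DC and 4424 to 5573 in GM DC, against 9984 to 15595 in GM4 DC and 9839 to 10026 in GM DC at 0 h. Of 17 DC markers, 9 were higher and 0 lower in GM4 DC at 0 h, with summed signals of 25520.2 to 33852 in GM4 DC, against 15784 to 21974 in GM DC. Of 13 T and NK cell markers 4 were higher and 1 lower in GM4 DC at 0 h, with sums of 1059 to 1201 in GM4 DC, against 514 to 677 in GM DC. Of 10 stroma markers 4 were lower and 0 higher, with sums of 667 to 1040.3 in GM4 DC, against 1429 to 2214 in GM DC. The part of these marker shifts in the results below was not tested, and in bulk RNA fewer cells of a type cannot be told apart from less RNA per cell.

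In unstimulated cells, 2 phosphatase genes were higher and 3 lower in GM4 DC than in GM DC, which is 14.3% of the 35. Among all 8251 genes 16.2% passed, 8.05% higher and 8.16% lower. The higher genes were Ptpn9, which codes for an enzyme with a lipid-binding Sec14 domain found on secretory vesicles, and Ptp4a3 (PRL-3). The lower genes were the receptor-type Ptpre (PTP epsilon) and Ptprs (PTP sigma, a receptor for heparan and chondroitin sulphate proteoglycans) and the PEST-type cytosolic Ptpn18. The median log2 difference of the 35 was -0.12, against -0.06 over all genes.

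Ptpn9 gave signals of 555, 523 and 470.3 before stimulation, 495, 556 and 526 at 6 h and 415 and 378 at 20 h in GM4 DC. In GM DC its signals were 266, 217 and 261 before stimulation, 252 and 297 at 6 h and 317 and 295 at 20 h. Every GM4 array was brighter than every GM array at all times, with the gap narrowest at 20 h. The difference was 2.02-fold at 0 h (log2 difference 1.01 ± 0.11, adjusted p = 5.59e-05) and 1.87-fold at 6 h (log2 difference 0.90 ± 0.13, adjusted p = 0.000526). Here and below, errors of log2 differences are standard errors of the fit. At 20 h it was 0.36 ± 0.14 and did not pass (adjusted p = 0.197). Its response at 20 h differed between the DC types by -0.66 ± 0.18 (adjusted p = 0.111).

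Ptpre showed the opposite order. Its signals were 308, 333 and 315 before stimulation, 350.0, 369 and 298 at 6 h and 356 and 388 at 20 h in GM4 DC, against 626, 566 and 567 before stimulation, 428 and 609.8 at 6 h and 501 and 514 at 20 h in GM DC. The highest GM4 array, at 388, lay under the lowest GM array, at 428. Ptpre was 1.80-fold lower in GM4 DC at 0 h (log2 difference -0.85 ± 0.13, adjusted p = 0.000516) and 1.49-fold lower at 6 h (log2 difference -0.57 ± 0.14, adjusted p = 0.0191), while at 20 h the value was -0.43 ± 0.16 (adjusted p = 0.153). The 6 h call was lost without GM DC at 6 h, replicate 2 (-0.33, adjusted p = 0.185), or without GM4 DC at 6 h, replicate 3 (-0.49, adjusted p = 0.0743). Stimulation moved Ptpre in neither DC type by an amount that passed.

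Ptprs combined a difference between the DC types with a fall after stimulation. Its signals in GM4 DC were 149, 122 and 161 before stimulation, 81.6, 68.1 and 60.5 at 6 h and 99.0 and 96.4 at 20 h. GM DC gave 285, 321 and 223 before stimulation, 109 and 109 at 6 h and 149 and 162 at 20 h. At each time the GM4 arrays were all below the GM arrays, and within each DC type the 0 h arrays were the highest. The GM4 minus GM difference was -0.86 ± 0.15 (adjusted p = 0.00188) at 0 h. At 6 h and 20 h it was -0.55 ± 0.17 and -0.59 ± 0.19 and did not pass (adjusted p = 0.0584 and 0.0989). The miss at 6 h depended on the settings. The 6 h value passed with an offset of 1 (-0.64, adjusted p = 0.0484) and with quantile normalization (-0.60, adjusted p = 0.0418). It also passed after the filter on low signals (-0.55, adjusted p = 0.0391) and with the mean of a gene's probe sets (-0.55, adjusted p = 0.0477).

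Ptpn18 was 1.43-fold lower in GM4 DC at 0 h (log2 difference -0.52 ± 0.14, adjusted p = 0.0286). Its signals were 157, 129.9 and 166 before stimulation, 119.5, 111 and 119 at 6 h and 64.2 and 72.1 at 20 h in GM4 DC, against 264, 210.1 and 197 before stimulation, 104 and 89.0 at 6 h and 63.7 and 55.0 at 20 h in GM DC. The groups were apart at 0 h with GM4 DC lower, and at 6 h and 20 h the GM4 arrays lay slightly above the GM arrays without passing. The 0 h call was lost when either GM4 replicate 1 or 2, or GM replicate 1 or 2, was left out (log2 -0.56 to -0.40), and with RNA integrity as a covariate (-0.64, adjusted p = 0.0812).

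Ptp4a3 was a dim probe set. In GM4 DC its signals were 57.1, 44.4 and 39.4 before stimulation, 17.4, 6.89 and 7.56 at 6 h and 5.34 and 5.26 at 20 h, against 35.9, 11.4 and 19.0 before stimulation, 7.73 and 4.41 at 6 h and 4.65 and 3.61 at 20 h in GM DC. All 3 GM4 arrays at 0 h lay above every other array, and within each DC type the 0 h arrays were the highest, though 1 GM array at 0 h read less than 1 GM4 array at 6 h. The 0 h difference was 0.77 ± 0.22 (adjusted p = 0.0329). The call was lost without GM4 replicate 1 or 2 or GM replicate 2 or 3 (log2 0.55 to 0.79), without the doubted pair of arrays (0.73, adjusted p = 0.099), with an offset of 1 (1.18, adjusted p = 0.106) and with RNA integrity as a covariate (0.35, adjusted p = 0.571).

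At 6 h, 1 gene was higher and 2 were lower in GM4 DC, 8.57% of the 35, where 13% of all genes passed (7.73% higher and 5.26% lower). Ptpn9 and Ptpre kept the directions given above, and the other gene was Ptpn1, which encodes PTP1B, a phosphatase of the endoplasmic reticulum surface that acts on the insulin receptor and on Jak2. Ptpn1 signals were 1951, 2316 and 2289 before stimulation, 2325, 2095 and 2416 at 6 h and 3305 and 3072 at 20 h in GM4 DC. In GM DC they were 2325, 3590.4 and 2954 before stimulation, 5923 and 3854 at 6 h and 4929 and 5195 at 20 h. The 2 GM arrays at 6 h differed from each other more than the GM4 arrays did, but both lay above all 3 GM4 arrays. Ptpn1 was 2.09-fold lower in GM4 DC at 6 h (log2 difference -1.07 ± 0.20, adjusted p = 0.00367), against -0.42 ± 0.18 at 0 h and -0.66 ± 0.22 at 20 h, which did not pass (adjusted p = 0.151 and 0.11). The 6 h call was lost without GM DC at 6 h, replicate 1 (-0.76, adjusted p = 0.069), without the doubted pair (-0.76, adjusted p = 0.0754) and with RNA integrity as a covariate (-0.84, adjusted p = 0.0872).

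At 20 h no phosphatase gene passed by limma, where 5.41% of all genes did. At an unadjusted p under 0.05 there were 6, of which 2 were higher and 4 lower in GM4 DC. The share of all genes at that unadjusted threshold was not counted. With RNA integrity as a covariate 2 genes passed at this time, Ptprc (-2.01, adjusted p = 0.00262) and Ptpn6 (-1.59, adjusted p = 0.0218), both lower in GM4 DC; the values of this pair at the other times under that covariate are given with these genes further on.

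**Figure D2:**
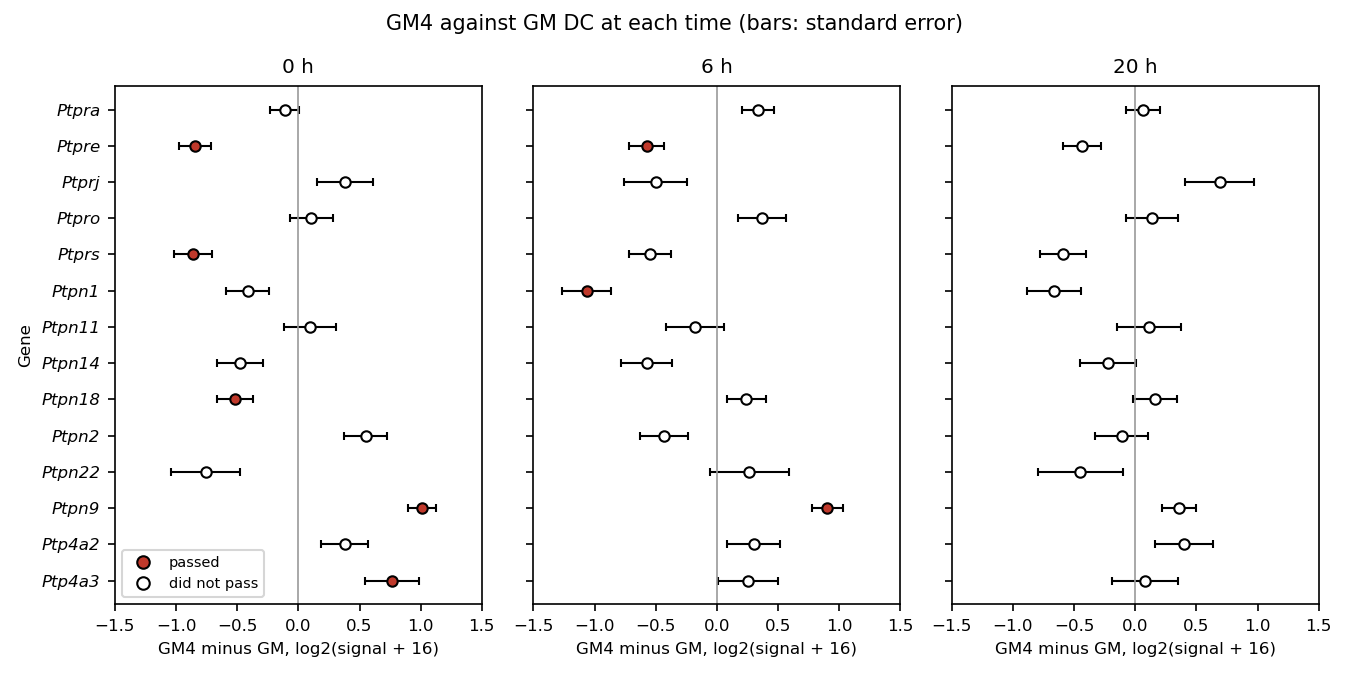
GM4 minus GM difference in log2(signal + 16) (x axis) at 0, 6 and 20 h for the 14 genes that passed at least 1 direct comparison (y axis); points are fitted differences, bars their standard errors, and filled points passed. Ptpn9 is filled to the right of 0 at 0 h and 6 h, Ptpre is filled to the left at both times, and no point is filled at 20 h.

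The next comparison asked which phosphatase genes responded to 6 h of LPS and IFN-γ. In GM4 DC 1 gene rose and 5 fell, 17.1% of the 35, where 19.1% of all genes passed (6.76% higher and 12.3% lower). In GM DC 4 rose and 7 fell, 31.4% of the 35, where 28.6% of all genes passed (9.31% higher and 19.3% lower). Both DC types shared 5 genes that fell (Ptpro, Ptpn22, Ptprs, Ptp4a2 and Ptp4a3) and 1 that rose (Ptpn11), which is all 6 of the GM4 genes and 6 of the 11 GM genes. Another 5 passed in GM DC alone, 24 passed in neither, and none moved in opposite directions. This overlap was not counted over all genes, so it cannot be called particular to the phosphatases.

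Ptpro, a receptor-type phosphatase known from podocytes, osteoclasts and macrophages, gave signals of 446, 432 and 365 before stimulation, 127, 87.3 and 90.5 at 6 h and 305 and 271 at 20 h in GM4 DC. In GM DC the signals were 404, 432 and 322 before stimulation, 69.8 and 79.0 at 6 h and 321 and 211 at 20 h. All 6 h arrays were far below all arrays at 0 h and 20 h in both DC types, and the DC types overlapped at 0 h and 20 h. Ptpro fell 3.68-fold in GM4 DC (log2 difference -1.88 ± 0.17, adjusted p = 5.54e-06) and 4.42-fold in GM DC (log2 difference -2.14 ± 0.20, adjusted p = 2.78e-06). From 6 h to 20 h it was higher again, by 1.38 ± 0.20 in GM4 DC (adjusted p = 0.000442) and 1.61 ± 0.21 in GM DC (adjusted p = 0.000168). Against 0 h the 20 h values were -0.50 ± 0.20 in GM4 DC and -0.53 ± 0.20 in GM DC, and neither passed (adjusted p = 0.0902 and 0.0602). This miss depended on the settings. The GM4 value passed with RNA integrity as a covariate (-0.51, adjusted p = 0.0425), and the GM value passed without the doubted pair (-0.65, adjusted p = 0.0383) and after the filter on low signals (-0.53, adjusted p = 0.0431).

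Ptpn22 followed the same course. Its signals in GM4 DC were 53.8, 75.6 and 59.9 before stimulation, 7.52, 30.0 and 10.1 at 6 h and 86.2 and 50.7 at 20 h. Those in GM DC were 122, 161 and 81.0 before stimulation, 8.61 and 10.1 at 6 h and 82.8 and 112 at 20 h. The 6 h arrays lay at or under 30.0 in both DC types and no 0 h or 20 h array was under 50. The fall at 6 h was -1.37 ± 0.29 (adjusted p = 0.00459) in GM4 DC and -2.39 ± 0.32 (adjusted p = 8.58e-05) in GM DC on the log2(signal + 16) scale. Since most 6 h signals were under 16, its size is set by the offset: it was -2.15 with an offset of 1 and -0.68 with 64 in GM4 DC, and -3.51 and -1.31 in GM DC, and passed each time. The rise from 6 h to 20 h was 1.44 ± 0.32 in GM4 DC (adjusted p = 0.00913) and 2.15 ± 0.35 in GM DC (adjusted p = 0.000782). Without GM4 DC at 20 h, replicate 1, the GM4 rise was 1.13, adjusted p = 0.121. A second Ptpn22 probe set had signals of 3.00 or less on every array and showed no change that passed.

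Ptprs, whose signals are given above, fell at 6 h, with log2 differences of -0.89 ± 0.15 (adjusted p = 0.00125) in GM4 DC and -1.21 ± 0.17 (adjusted p = 0.000146) in GM DC. At 20 h it was still lower in GM DC (log2 difference -0.75 ± 0.17, adjusted p = 0.00428), while the GM4 value of -0.48 ± 0.17 did not pass (adjusted p = 0.0631), though it did without the doubted pair (-0.48, adjusted p = 0.0483) and with RNA integrity as a covariate (-0.49, adjusted p = 0.0469).

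The Ptp4a genes fell and stayed low. Ptp4a2 (PRL-2), a phosphatase of the same small lipid-anchored family as Ptp4a3, gave 866, 869 and 699 before stimulation, 441, 505 and 380.4 at 6 h and 426 and 348 at 20 h in GM4 DC, against 901, 519 and 500.1 before stimulation, 362 and 345 at 6 h and 304 and 272 at 20 h in GM DC. Within each DC type every array at 6 h and 20 h was below every 0 h array. At 6 h Ptp4a2 fell 1.81-fold in GM4 DC (log2 difference -0.85 ± 0.19, adjusted p = 0.00721) and 1.71-fold in GM DC (log2 difference -0.78 ± 0.22, adjusted p = 0.0164). At 20 h it stood 2.05-fold lower in GM4 DC (log2 difference -1.04 ± 0.22, adjusted p = 0.00328) and 2.08-fold lower in GM DC (log2 difference -1.06 ± 0.22, adjusted p = 0.00185). The GM call at 6 h was lost without either 6 h array (log2 -0.81 to -0.74). The GM4 call at 20 h was lost without replicate 2 (-0.90, adjusted p = 0.0568).

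Ptp4a3, from the dim signals given above, changed in GM4 DC by -1.25 ± 0.22 (adjusted p = 0.00133) at 6 h and -1.55 ± 0.25 (adjusted p = 0.000434) at 20 h. In GM DC it changed by -0.74 ± 0.25 (adjusted p = 0.0406) at 6 h and -0.87 ± 0.25 (adjusted p = 0.0158) at 20 h. Most 6 h and all 20 h signals were under 16, so these sizes are set by the offset. At 20 h the change was -2.91 with an offset of 1 and -0.68 with 64 in GM4 DC. In GM DC it was -2.04 and -0.33. Both GM4 calls held without each array in turn and under each alternative but the filter on low signals, which removed this probe set. The GM call at 6 h was lost without any 1 of 9 arrays (GM 0 h replicates 1 and 3, both GM 6 h, both GM 20 h, GM4 0 h replicate 2 and both GM4 20 h arrays; log2 -0.85 to -0.49), without the doubted pair (-0.89, adjusted p = 0.117) and with an offset of 64 (-0.29, adjusted p = 0.0619). That at 20 h was lost without GM 0 h replicate 1 or either GM 20 h array (log2 -0.91 to -0.62).

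Ptpn11, which encodes SHP2, the SH2-domain phosphatase downstream of growth factor receptors, was the only gene to rise in both DC types at 6 h. Its signals were low, at 11.4, 13.5 and 16.9 before stimulation, 38.6, 33.3 and 30.3 at 6 h and 25.4 and 33.8 at 20 h in GM4 DC, against 5.19, 19.6 and 12.9 before stimulation, 32.5 and 50.1 at 6 h and 21.0 and 31.9 at 20 h in GM DC. All 6 h arrays lay above all 0 h arrays of both DC types. The rise was 0.74 ± 0.21 (adjusted p = 0.029) in GM4 DC and 1.02 ± 0.24 (adjusted p = 0.00597) in GM DC. Since most 0 h signals were under 16, these sizes are set by the offset. In GM4 DC the rise was 1.24 with an offset of 1 and 0.33 with 64. In GM DC it was 1.77 and 0.46. The filter on low signals removed this probe set. In GM4 DC the call was lost without replicate 1 or 2 at either 0 h or 6 h (log2 0.68 to 0.75) and with an offset of 1 (1.24, adjusted p = 0.0544), and in GM DC without replicate 2 at 6 h (0.80, adjusted p = 0.0692). At 20 h the values were 0.61 ± 0.24 in GM4 DC and 0.59 ± 0.24 in GM DC and did not pass (adjusted p = 0.0925 and 0.0866).

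**Figure D3:**
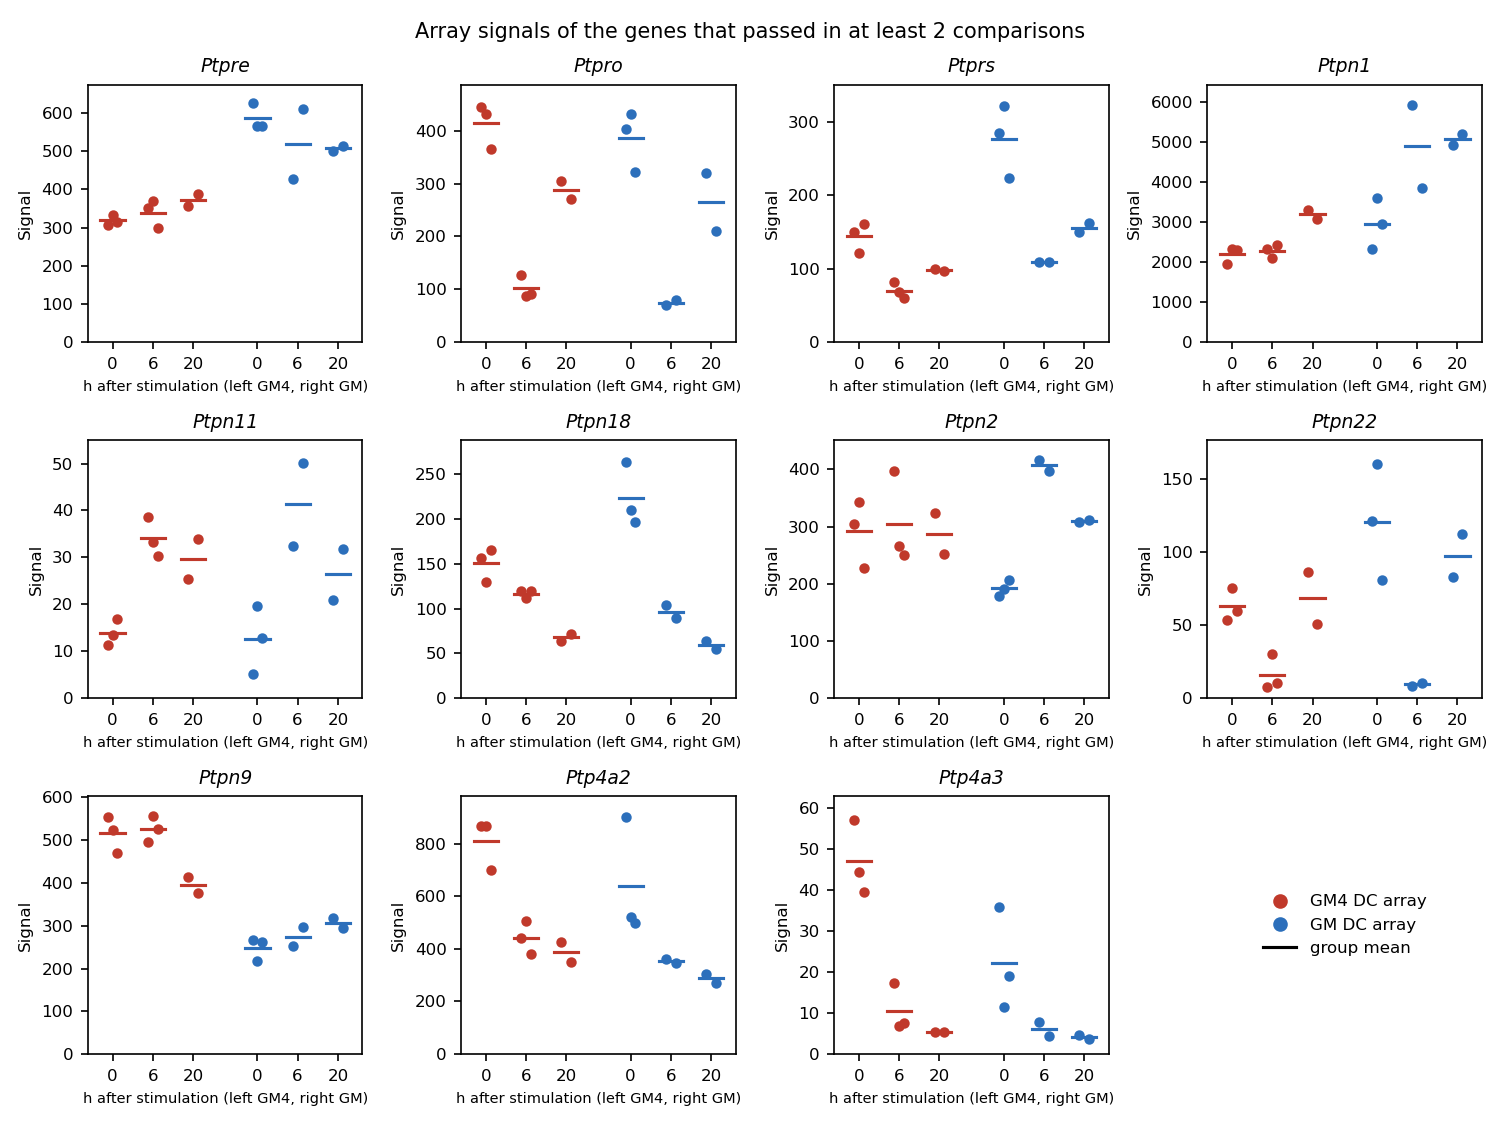
Array signals (y axis, linear scale from 0, one panel and scale per gene) at 0, 6 and 20 h for the 11 genes that passed at least 2 direct comparisons; each point is 1 array, GM4 DC on the left and GM DC on the right of each panel, and bars are group means. Ptpro and Ptpn22 dip at 6 h in both DC types, Ptp4a2 and Ptp4a3 are highest at 0 h within each DC type, and Ptpn9 and Ptpre keep the DC types apart throughout.

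The start-site windows of the genes with the largest falls in GM DC at 6 h among those that passed in both DC types (Ptpn22, Ptpro and Ptprs), and of Ptpn11 as the one that rose, are given because these genes changed in both DC types. Each runs from 250 bases before to 50 bases after a RefSeq start site (GRCm38.p6, from RefSeq, read 5′ to 3′ on the gene's strand), and capitals mark matches, on either strand, to the letters of PU.1 (GAGGAA), GAS (TTCNNNGAA), the STAT6 site (TTC and GAA with any 4 bases between), ISRE (GAAA and GAAA with any 2 bases between) or the NF-kappaB site. The windows lie at chr6:137252049-137252348 (+ strand) for Ptpro, chr3:103859545-103859844 (+ strand) and chr3:103860027-103860326 (+ strand) for Ptpn22, chr17:56476431-56476730 (- strand) and chr17:56462172-56462471 (- strand) for Ptprs, and chr5:121191348-121191647 (- strand) for Ptpn11.
Ptpro: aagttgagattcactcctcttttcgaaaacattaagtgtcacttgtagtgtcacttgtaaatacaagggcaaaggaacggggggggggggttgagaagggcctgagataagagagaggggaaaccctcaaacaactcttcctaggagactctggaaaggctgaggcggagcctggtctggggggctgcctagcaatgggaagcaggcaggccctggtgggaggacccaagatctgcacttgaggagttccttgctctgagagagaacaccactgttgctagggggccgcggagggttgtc
Ptpn22 window 1: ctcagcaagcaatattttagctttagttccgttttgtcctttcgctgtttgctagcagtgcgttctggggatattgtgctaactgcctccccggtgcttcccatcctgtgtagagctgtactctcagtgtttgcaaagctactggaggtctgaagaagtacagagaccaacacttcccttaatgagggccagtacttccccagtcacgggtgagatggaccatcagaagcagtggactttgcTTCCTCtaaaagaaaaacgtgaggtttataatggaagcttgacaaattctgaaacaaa
Ptpn22 window 2: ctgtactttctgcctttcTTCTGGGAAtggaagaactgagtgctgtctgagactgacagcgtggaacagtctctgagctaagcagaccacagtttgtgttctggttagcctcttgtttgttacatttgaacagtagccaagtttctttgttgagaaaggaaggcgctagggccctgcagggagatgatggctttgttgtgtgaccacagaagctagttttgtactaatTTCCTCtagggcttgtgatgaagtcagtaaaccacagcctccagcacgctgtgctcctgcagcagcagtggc
Ptprs window 1: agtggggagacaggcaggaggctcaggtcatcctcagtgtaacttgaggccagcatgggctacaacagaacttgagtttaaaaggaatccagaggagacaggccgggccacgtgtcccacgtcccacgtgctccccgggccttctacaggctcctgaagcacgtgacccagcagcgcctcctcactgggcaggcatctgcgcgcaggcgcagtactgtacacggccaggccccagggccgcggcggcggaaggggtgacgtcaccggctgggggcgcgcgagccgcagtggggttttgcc
Ptprs window 2: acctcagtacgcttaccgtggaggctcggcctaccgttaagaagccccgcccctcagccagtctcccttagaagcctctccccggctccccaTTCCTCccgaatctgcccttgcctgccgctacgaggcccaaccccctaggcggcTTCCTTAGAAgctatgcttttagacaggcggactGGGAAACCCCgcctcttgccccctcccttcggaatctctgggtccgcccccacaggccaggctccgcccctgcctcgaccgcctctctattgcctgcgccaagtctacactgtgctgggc
Ptpn11: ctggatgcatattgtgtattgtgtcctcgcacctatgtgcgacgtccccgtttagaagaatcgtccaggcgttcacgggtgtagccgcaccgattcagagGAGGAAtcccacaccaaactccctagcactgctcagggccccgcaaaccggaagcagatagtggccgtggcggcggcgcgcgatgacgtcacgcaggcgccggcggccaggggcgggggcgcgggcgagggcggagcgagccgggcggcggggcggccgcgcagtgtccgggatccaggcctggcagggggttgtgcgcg
The Ptpro window and the first Ptprs window held none of the 5 motifs. Both Ptpn22 windows held the PU.1 letters, 8 and 22 bases before the start site, and the second also a GAS match 232 bases before it. The second Ptprs window held the NF-kappaB, STAT6 and PU.1 letters 70, 104 and 158 bases before its start site, and the Ptpn11 window held PU.1 letters 150 bases before it. Of the 35 genes 28 had a window, 41 windows in all. PU.1 letters occurred in 46.3% of these and in 28.3% of all 32851 windows, GAS in 9.76% and 8.3%, the STAT6 letters in 7.32% and 6.95%, NF-kappaB in 9.76% and 8.46%, and ISRE in 0 of 41 against 3.44%. Matches of different motifs may share bases, and a match describes the sequence and not binding.

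Another 5 genes changed at 6 h in GM DC without passing in GM4 DC: Ptpn1, Ptpn2 and Ptprj rose, and Ptpn18 and Ptpra fell. Ptpn2 encodes TC-PTP, which removes phosphate from JAK and STAT proteins. Its signals in GM4 DC were 305, 342 and 228 before stimulation, 396, 266 and 251 at 6 h and 324 and 251 at 20 h. GM DC gave 179, 191 and 206 before stimulation, 417 and 397 at 6 h and 307 and 312 at 20 h. The GM4 groups overlapped across times, whereas in GM DC both arrays at 6 h and both at 20 h were above all 0 h arrays. The GM 0 h arrays were also below every GM4 array. This GM4 minus GM difference at 0 h did not pass in the main fit. It passed with quantile normalization (0.60, adjusted p = 0.0317) and after the filter on low signals (0.55, adjusted p = 0.0362). With the mean of a gene's probe sets it passed as well (0.55, adjusted p = 0.0499). In GM DC Ptpn2 was 2.04-fold higher at 6 h (log2 difference 1.03 ± 0.20, adjusted p = 0.00144) and 1.57-fold higher at 20 h (log2 difference 0.65 ± 0.20, adjusted p = 0.0234). In GM4 DC the values were 0.05 ± 0.18 and -0.01 ± 0.20 (adjusted p = 0.912 and 0.981). The 20 h call was lost without GM 0 h replicate 1 or 2 or either GM 20 h array (log2 0.60 to 0.66).

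Ptpn1, from the signals given above, rose in GM DC by 0.71 ± 0.20 (adjusted p = 0.0173) at 6 h and 0.79 ± 0.20 (adjusted p = 0.008) at 20 h. In GM4 DC it was 0.06 ± 0.18 at 6 h (adjusted p = 0.889) and 0.54 ± 0.20 at 20 h (adjusted p = 0.0697), with both GM4 arrays at 20 h above all earlier GM4 arrays. Without the doubted pair the GM4 value at 20 h passed (0.54, adjusted p = 0.0457). The GM call at 6 h was lost without GM 0 h replicate 1 (0.55, adjusted p = 0.0641), without GM 6 h replicate 1 (0.40, adjusted p = 0.269), without the doubted pair (0.41, adjusted p = 0.299) and with quantile normalization (0.30, adjusted p = 0.211). That at 20 h was lost without GM 20 h replicate 2 (0.76, adjusted p = 0.0638).

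Ptpn18, with the signals given above, was lower than at 0 h in GM DC by -1.08 ± 0.16 (adjusted p = 0.000204) at 6 h and -1.66 ± 0.16 (adjusted p = 3.4e-06) at 20 h, a 3.16-fold fall by 20 h. In GM4 DC it was -0.32 ± 0.14 at 6 h (adjusted p = 0.163) and 1.98-fold lower at 20 h (log2 difference -0.98 ± 0.16, adjusted p = 0.000592). Between 6 h and 20 h it fell in both, with log2 differences of -0.66 ± 0.16 (adjusted p = 0.0165) in GM4 DC and -0.58 ± 0.18 (adjusted p = 0.0392) in GM DC. The GM4 step was lost without either 20 h array (log2 -0.73 to -0.59). The GM step was lost without any 1 of 8 arrays (all 4 of GM 6 h and 20 h, GM 0 h replicate 2, GM4 0 h replicate 1 and GM4 6 h replicates 2 and 3; log2 -0.67 to -0.48), without the doubted pair (-0.48, adjusted p = 0.176), with an offset of 64 (-0.38, adjusted p = 0.0735) and with RNA integrity as a covariate (-0.54, adjusted p = 0.06).

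Ptprj encodes CD148, a receptor-type phosphatase of haematopoietic cells. Its representing probe set read 71.6 and 63.1 in GM DC at 6 h, against 15.2, 12.5 and 10.3 at 0 h, and 64.9, 46.2 and 24.4 in GM4 DC at 6 h, against 26.8, 20.3 and 17.3 at 0 h. The GM groups were far apart, and the GM4 groups overlapped. The change was 1.54 ± 0.26 (adjusted p = 0.00049) in GM DC, where all 0 h signals were under 16, so that its size is set by the offset (2.34 with an offset of 1 and 0.78 with 64, both passing). In GM4 DC the 6 h change was 0.66 ± 0.23 (adjusted p = 0.0695), and it passed after the filter on low signals (adjusted p = 0.0413). At 20 h the GM4 arrays read 45.4 and 46.6, above all GM4 arrays at 0 h. That 20 h change did not pass in the main fit. It did after the filter (0.73, adjusted p = 0.0349) and with RNA integrity as a covariate (0.72, adjusted p = 0.0403). A second Ptprj probe set also rose in GM DC (log2 difference 1.15 ± 0.27, adjusted p = 0.00646), and another, at 14.8 or less on every array, had no change that passed. By 20 h Ptprj in GM DC was lower than at 6 h (log2 difference -1.11 ± 0.28, adjusted p = 0.0137), a call lost without GM 6 h replicate 1 (-1.04, adjusted p = 0.0749), without GM 20 h replicate 2 (adjusted p = 0.102) and without the doubted pair (-1.04, adjusted p = 0.0846).

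Ptpra, whose product activates Src family kinases by removing an inhibitory phosphate, read 138 and 111 in GM DC at 6 h, against 207, 194 and 209 at 0 h, a fall of 1.57-fold (log2 difference -0.65 ± 0.13, adjusted p = 0.00192). At 20 h it read 234 and 199 in GM DC and 229 and 224 in GM4 DC, against 6 h values in GM4 DC of 155, 171 and 155. In both DC types all 20 h arrays were brighter than all 6 h arrays. From 6 h to 20 h it rose by 0.46 ± 0.13 in GM4 DC (adjusted p = 0.0336) and 0.73 ± 0.14 in GM DC (adjusted p = 0.00272). The GM4 rise was lost without any 1 of the 5 GM4 arrays at 6 h and 20 h (log2 0.44 to 0.50) and with quantile normalization (0.40, adjusted p = 0.0642). A second Ptpra probe set stayed at 10.4 or less on every array. Averaging both ended the calls for the GM fall (-0.34, adjusted p = 0.0912) and the GM4 rise (0.29, adjusted p = 0.225).

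**Figure D4:**
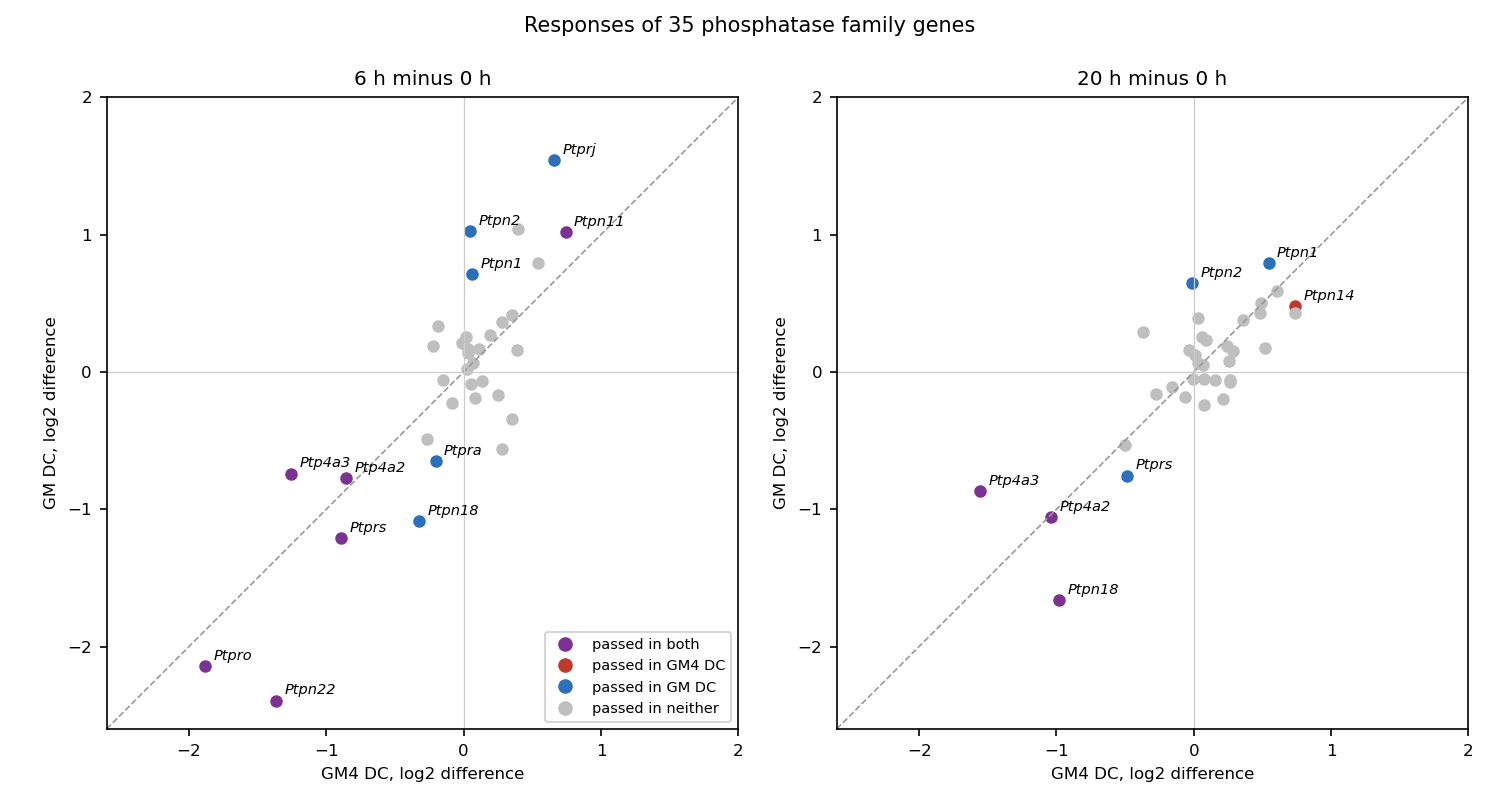
Log2 difference from 0 h in GM4 DC (x axis) and GM DC (y axis) for the 35 genes at 6 h (left) and 20 h (right); the dashed line marks equal responses, and colours show in which DC type a gene passed. At 6 h Ptpro and Ptpn22 lie at the lower left in both DC types, Ptpn2 and Ptpn1 sit near 0 on the GM4 axis, and at 20 h Ptp4a2, Ptp4a3 and Ptpn18 are the genes that passed in both.

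At 20 h against 0 h, 1 phosphatase gene was higher and 3 lower in GM4 DC, 11.4% of the 35, where 24% of all genes passed (9.65% higher and 14.3% lower). In GM DC 2 were higher and 4 lower, 17.1% of the 35, where 31.1% of all genes passed (12.6% higher and 18.5% lower). Ptp4a2, Ptp4a3 and Ptpn18 were lower in both DC types. Ptprs was lower, and Ptpn1 and Ptpn2 higher, in GM DC. Not every fall at 6 h was still present at 20 h. Of the 5 genes that fell in GM4 DC at 6 h, 2 were lower than 0 h at 20 h and 2 had risen from 6 h. Of the 7 that fell in GM DC, 4 were lower than 0 h and 3 had risen. Such counts were not made over all genes. The one gene that passed in GM4 DC alone was Ptpn14, a FERM-domain phosphatase that binds the transcriptional co-activator YAP. It read 54.6 and 72.7 in GM4 DC at 20 h, against 34.6, 25.1 and 35.3 at 0 h and 29.1, 26.4 and 24.5 at 6 h. Both 20 h arrays were above all earlier GM4 arrays. The difference was 0.74 ± 0.21 (adjusted p = 0.0221) from 0 h and 0.89 ± 0.21 (adjusted p = 0.0128) from 6 h. Both were lost without GM4 20 h replicate 2 (0.57, adjusted p = 0.22 and 0.73, adjusted p = 0.166), and the first also without GM4 0 h replicate 2 (0.64, adjusted p = 0.0786). In GM DC the 20 h difference was 0.48 ± 0.21 (adjusted p = 0.114).

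Between 6 h and 20 h, a comparison added after the data had been seen, 4 genes rose and 1 fell in GM4 DC (14.3% of the 35, where 13.9% of all genes passed, 6.91% higher and 7.01% lower) and 4 rose and 2 fell in GM DC (17.1%, where 19.2% passed, 10.5% higher and 8.62% lower). Ptpro, Ptpn22 and Ptpra rose and Ptpn18 fell in both. Ptpn14 rose in GM4 DC. In GM DC Ptprj fell and Ptprr, a phosphatase of MAP kinases, rose (log2 difference 0.84 ± 0.25, adjusted p = 0.036). Ptprr read 159 and 270.0 at 20 h, against 114 and 104 at 6 h. Its call rested on the brighter 20 h array and was lost without GM 20 h replicate 2 (0.49, adjusted p = 0.354), without either 6 h array (0.90, adjusted p = 0.0929 and 0.79, adjusted p = 0.142), without the doubted pair (0.90, adjusted p = 0.0784) and with the mean of its probe sets (0.43, adjusted p = 0.144).

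Whether a gene responded differently in the DC types was tested directly as the GM4 response minus the GM response. By limma 0 of the 35 genes passed at 6 h, where 1.24% of all genes did, and 0 at 20 h, where 1.49% did. At an unadjusted p under 0.05 there were 8 and 3, again without a count over all genes. Genes that passed in GM DC alone are therefore not shown to respond differently in GM4 DC. By limma the lowest unadjusted p at 6 h was that of Ptpn2, with a GM4 minus GM difference of responses of -0.98 ± 0.26 on the log2 scale (adjusted p = 0.102, 95% interval -1.54 to -0.41). Without GM4 6 h replicate 1, the brightest GM4 array for this gene, this difference passed (-1.17, adjusted p = 0.0266). The Ptpn2 signals of GM DC at 0 h, which lay below every GM4 array, enter this difference. For Ptpn18 the difference of 6 h responses was 0.76 ± 0.22 (adjusted p = 0.121), and the values of Ptpn22 and Ptpn1 were 1.03 ± 0.43 and -0.65 ± 0.27 (adjusted p = 0.336 and 0.326). Each of these responses shares its 0 h arrays with the 20 h response of the same DC type.

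Ptprc (CD45) and Ptpn6 (SHP-1), the family members best known in leukocytes, passed no comparison with the design used throughout, and their replicates spread widely. Ptprc signals were 459, 334 and 220.4 before stimulation, 578, 496 and 279 at 6 h and 413 and 425 at 20 h in GM4 DC, against 708, 451 and 225 before stimulation, 800.1 and 958 at 6 h and 571 and 526 at 20 h in GM DC. For Ptpn6 they were 286, 226 and 208 before stimulation, 409, 358 and 303 at 6 h and 195 and 193 at 20 h in GM4 DC and 429.9, 281 and 96.4 before stimulation, 473 and 357 at 6 h and 217 and 192 at 20 h in GM DC. Both genes read lowest on replicate 3 within each group that had one, and the lowest Ptpn6 value of all, 96.4, came from the GM 0 h array with the highest 3′ to 5′ Gapdh ratio. With RNA integrity as a covariate, Ptprc was lower in GM4 DC at 0 h (-1.63, adjusted p = 0.000368) and 6 h (-2.31, adjusted p = 0.00023) as well as at 20 h. Ptprc was then also higher in GM DC at 6 h (0.92, adjusted p = 0.000561) and 20 h (0.68, adjusted p = 0.00471) than at 0 h. Ptpn6 under that covariate was lower in GM4 DC at 0 h (-1.15, adjusted p = 0.0155) and 6 h (-1.44, adjusted p = 0.0077), higher at 6 h in GM DC (0.68, adjusted p = 0.0228) and lower at 20 h than at 6 h in GM4 DC (-0.72, adjusted p = 0.0311). Both 3′ to 5′ ratios ran higher in GM DC, so the covariate and the DC type overlap. Without the doubted pair, Ptpn6 was lower in GM DC at 20 h (-0.72, adjusted p = 0.0232) and higher in GM4 DC at 6 h (0.54, adjusted p = 0.0493) than at 0 h, and lower at 20 h than at 6 h in GM4 DC (-0.82, adjusted p = 0.0156). Calls on this pair of genes thus depend on these choices. The largest Ptprc difference was at 6 h in GM DC (log2 difference 1.04 ± 0.39, adjusted p = 0.0716), and that of Ptpn6 in the same comparison was 0.80 ± 0.39 (adjusted p = 0.173). A second Ptprc probe set read between 50.8 and 163 and another 8.04 or less; neither passed.

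The remaining 19 genes that passed none of the 7 direct comparisons are accounted for here by their ranges over the 15 arrays. Ptprn, an inactive family member of secretory granules that is an autoantigen in human type 1 diabetes, read 97.8 to 172 (median 131). Ptprr read 82.8 to 270.0 (median 122). Ptpn23, an endosomal sorting protein, read 67.6 to 121 (median 98.8) and Ptprcap 68.1 to 116 (median 90.6). In these 4 genes every direct log2 difference lay within 0.50 either way. Ptprf (LAR), a relative of Ptprs, read 23.9 to 74.3 (median 50.6). Without the doubted pair it was higher in GM4 DC than in GM DC at 0 h (0.76, adjusted p = 0.0497) and higher at 20 h than at 0 h in GM DC (0.78, adjusted p = 0.0375). The adhesion-type members Ptprk and Ptpru read 30.6 to 86.6 (median 46.7) and 33.4 to 95.0 (median 42.9). Ptpn12 (PTP-PEST), a regulator of cell adhesion, read 11.4 to 101 (median 29.9), and its GM4 minus GM value at 0 h was -0.83 ± 0.33 (adjusted p = 0.115). Ptprv read 5.25 to 71.9 (median 31.5) on its representing probe set, which showed no change that passed. Another Ptprv probe set was 7.08 and 6.30 in GM DC at 6 h, against 49.3, 72.7 and 34.3 at 0 h (log2 difference -1.55 ± 0.32, adjusted p = 0.0024), so the probe sets of this gene disagree. The rest were dim. Ptpn21, with a FERM domain, and Ptprn2, a relative of Ptprn, read 6.66 to 36.7 (median 21.8) and 4.26 to 26.9 (median 14.1), Ptpn5, a phosphatase of neurons, and Ptpn13, with FERM and PDZ domains, 7.76 to 27.9 (median 13.8) and 1.53 to 20.2 (median 12.3), and Ptprd, a relative of Ptprs, and the adhesion molecule Ptprm 1.79 to 30.1 (median 10.9) and 1.30 to 18.4 (median 7.16). The probe sets of Ptprg and Ptprz1, which carry a carbonic anhydrase-like domain, of the endothelial Ptprb and of Ptpn20, at 0.879 to 6.00 (median 3.32), 0.0386 to 5.01 (median 2.07), 0.843 to 3.93 (median 1.23) and 0.062 to 9.48 (median 0.81), never reached 16. Over all 21 genes that did not pass, 16 stayed within 0.5 on the log2 scale in every direct comparison and 20 within 1, and the lowest adjusted p was 0.0716. The offset of 16 compresses differences most in dim genes, and 12 of the 21 had a median signal under 40. These counts therefore do not show that the dim genes were stable.

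The enzymes and receptors that work with these phosphatases were read from lists. These held 34 tyrosine kinases, 36 receptors and adaptors linked to the SH2 phosphatases SHP-1 and SHP2, and 42 other phosphatases, most of them cysteine-based. Their counts stand beside shares of all genes passing of 16.2%, 13% and 5.41% for GM4 against GM DC at 0, 6 and 20 h, and 19.1% and 28.6% for 6 h against 0 h in GM4 DC and GM DC. Of 28 tyrosine kinases measured, 6 were higher and 3 lower in GM4 DC at 0 h, led by Fyn (2.44, adjusted p = 2.04e-05), Jak2 (1.78, adjusted p = 2.04e-05) and Kit (1.43, adjusted p = 0.000149), and by Csf1r (-1.60, adjusted p = 0.000149) among those lower. The response of Jak2, a substrate of PTP1B, differed at 6 h by -1.90 (adjusted p = 0.00286) between the DC types. At 6 h, 2 kinases were higher and 2 lower in GM4 DC, and at 20 h 1 and 2. Stimulation for 6 h raised 2 kinases and lowered 4 in GM4 DC, and raised 5 and lowered 4 in GM DC. Of 21 receptors and adaptors measured, 1 was higher and 7 lower in GM4 DC at 0 h. At 6 h 9 were lower, at 20 h 3, and none was higher at these times. Pdcd1 was higher (1.59, adjusted p = 8.29e-05), and Clec4a2 (-1.99, adjusted p = 2.46e-05) and Sirpa (-1.32, adjusted p = 2.78e-05), a macrophage receptor for Cd47, were lower at 0 h. Fcgr2b (-1.88, adjusted p = 0.011) was lowest at 6 h. The median log2 difference of this list was -0.31 at 6 h, against -0.02 over all genes, and the monocyte and macrophage markers given above moved the same way. Of 21 other phosphatases measured, 4 were higher and 3 lower in GM4 DC at 0 h. In this list 3 rose and 2 fell at 6 h in GM4 DC, and 4 rose and 4 fell in GM DC. Dusp16, a phosphatase of the stress kinases JNK and p38, rose in GM4 DC (0.81, adjusted p = 0.00243) and in GM DC (2.49, adjusted p = 2.37e-07), with a difference of responses of -1.67 (adjusted p = 0.00306). Dusp6, an ERK phosphatase, fell in GM4 DC (-2.02, adjusted p = 0.000109) and in GM DC (-1.37, adjusted p = 0.00287).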

How the data were processed

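Total RNA from 15 samples was hybridised to Affymetrix MG_U74Av2 arrays. The deposited values are MAS5 signal intensities per probe set, made by the authors, per the submitters' processing notes; its version was not given in the sources used here. Each array's intensities had the same 2% trimmed mean, so no further scaling was applied. Control probe sets (66 of 12488) were left out. Probe sets were named through the platform annotation: 10833 had 1 gene symbol, 396 several and 1193 none. All 51 phosphatase probe sets matched RefSeq by Entrez ID and 0 symbols changed.

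The log2(signal + 16) values of 12422 probe sets were fitted in limma 3.58.1 (R 4.3.3) with a mean for each of 6 groups, moderated with an intensity trend and adjusted by Benjamini-Hochberg within each of 9 preset comparisons and 2 added after the data were seen. The fit was tested on simulated data. Array number limits precision; depth has no counterpart here. Where no label says that samples came from separate animals, p-values measure only the spread between these samples. The labels give 0 h in the titles, though the source names of some 0 h samples mention stimulation; the titles were followed. The members and lists were chosen with earlier results of these data known. Every member was accounted for; those passing a direct comparison were described, with every array's signal for those passing at least 2, and up to 3 listed genes each way were named by size of change. Alternatives were offsets of 1 and 64, quantile normalization, a filter on low signals (40th percentile) and the mean of a gene's probe sets. RNA integrity (the mean log2 3′ to 5′ ratio of Gapdh and beta-actin) was used as a covariate. Others were a replicate block, leaving out 2 doubted arrays, and leaving out each array.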

Additional observations from a re-analysis of the deposited data

How the results depend on the processing

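Over the 11 comparisons, 46 gene and comparison pairs passed, 24 of them also under every alternative that tested them and without each array in turn, and 0 changed direction; the filter on low signals removed 7 pairs, those of Ptp4a3 and Ptpn11. Under the alternatives other than leaving out 1 array, counts of phosphatase genes passing moved by over 1.5 times in 3 cases. Leaving out the doubted pair of arrays gave 3 for GM DC at 20 h minus 6 h (6 with all arrays). RNA integrity as a covariate gave 7 for GM4 DC at 20 h minus 0 h (4 without it). That covariate also gave 2 for GM4 minus GM at 20 h (0 without it). The cause was not tested. Under that covariate the GM4 minus GM difference of Ptpn6 at 0 h was -1.15 (adjusted p = 0.0155), against 0.05 without it. Leaving out 1 array at a time gave 3 to 6 genes for GM4 minus GM at 0 h, 2 to 5 at 6 h and 0 to 0 at 20 h. For 6 h minus 0 h it gave 5 to 7 in GM4 DC and 8 to 11 in GM DC, for 20 h minus 0 h 2 to 5 and 3 to 9, and for 20 h minus 6 h 2 to 6 and 3 to 7. The differences of responses gave 0 to 1 at 6 h and 0 to 0 at 20 h. The lowest counts came without GM4 0 h replicate 1 or 2 (GM4 minus GM at 0 h), GM 6 h replicate 1 or GM4 6 h replicate 3 (6 h), GM4 20 h replicate 2 (GM4, 20 h minus 0 h), GM 20 h replicate 2 (GM, 20 h minus 0 h), either GM4 20 h array (GM4, 20 h minus 6 h), and GM 6 h replicate 1 or GM 20 h replicate 2 (GM, 20 h minus 6 h). With the replicate number as a block, the counts were 6, 4 and 0 for GM4 minus GM at 0, 6 and 20 h, 7 and 12 for 6 h minus 0 h in GM4 and GM DC, 6 and 7 for 20 h minus 0 h, 6 and 8 for 20 h minus 6 h, and 0 for both differences of responses; 0 of the 46 pairs were lost. Under the block Ptprc passed for GM 6 h minus 0 h (0.71, adjusted p = 0.013), GM4 minus GM at 6 h (-0.66, adjusted p = 0.0342) and GM 20 h minus 6 h (-0.66, adjusted p = 0.0335), Ptpn6 for 20 h minus 6 h in GM4 DC (-1.07, adjusted p = 0.0274) and GM DC (-0.96, adjusted p = 0.046), and Ptpro for 20 h minus 0 h in GM4 DC (-0.59, adjusted p = 0.0239) and GM DC (-0.62, adjusted p = 0.014). Ptpn2 then passed for GM4 minus GM at 0 h (0.55, adjusted p = 0.0355). In GM4 DC Ptprj passed for 6 h minus 0 h (0.66, adjusted p = 0.0268) and Ptprs for 20 h minus 0 h (-0.53, adjusted p = 0.0481). Same-numbered arrays correlated at 0.0223 to 0.332 in their deviations from group means, above 0.1 in 13 of 20 pairs, and 14 of 15 arrays correlated best with their own number, a hint from the data and not the design, so the numbers were not treated as pairing. Signals below 16 on 8 or more arrays limit what can be seen for 10 of the 35 genes. Only 19 genes stayed above 16 on every array. Ptpn22, Ptprj and Ptpn11 are not among the 10, but they too read below 16 on some arrays.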
